A study of Homo sapiens with 6 samples.

Results

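The mature miRNAs of the miR-192, miR-194 and miR-215 hairpins were followed through m7G RNA immunoprecipitation in Caco-2 cells. They were chosen by name, both arms of each hairpin, which gave 6 of the 2588 miRNAs in the count table. All 6 had enough counts to be tested, among 800 tested miRNAs. Caco-2 is an established line from a colorectal adenocarcinoma, grown with 20% fetal bovine serum and not treated or genetically altered in these libraries. Small RNA was sequenced from 3 input libraries and from 3 m7G-RIP libraries, made from heat-denatured RNA pulled down with an antibody against N7-methylguanosine. In the published protocol the RNA of both groups was decapped first, and the input was an aliquot set aside before the antibody was added. The comparison asks which mature miRNAs are recovered more or less by the antibody than their input level predicts. The labels do not say whether same-numbered libraries came from separate cultures, so the p-values measure only the spread between these libraries. This is 1 cell line, and no knockdown or IgG library was analysed here.

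miR-192, miR-194 and miR-215 are known as miRNAs of the intestine, liver and kidney. They are encoded as a pair of clusters, each with a miR-194 copy beside either miR-192 or its paralog miR-215. In colorectal cells the family is also known to be induced by p53 and to restrain the cell cycle. A hairpin yields a 5p and a 3p arm, of which usually only 1 is loaded into Argonaute in quantity.

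The first cluster lies on the minus strand of chromosome 11 of GRCh38, with MIR192 from 64891137 to 64891246 and MIR194-2 from 64891355 to 64891439. In GENCODE release 44 both hairpins lie within an exon of the long noncoding RNA MIR194-2HG. The second lies on the minus strand of chromosome 1, with MIR215 from 220117853 to 220117962 and MIR194-1 from 220118157 to 220118241. Both of these hairpins lie within an intron of IARS2, a gene for a mitochondrial isoleucyl-tRNA synthetase that is transcribed from the opposite strand. The mature sequences are shown first because the 5p and 3p arms of miR-194 were recovered differently. They are written 5′ to 3′ as RNA from RefSeq (GRCh38.p14), where all 6 members matched by name, with the seed (bases 2 to 8) in capitals.
hsa-miR-192-5p: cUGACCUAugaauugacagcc
hsa-miR-215-5p: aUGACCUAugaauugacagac
hsa-miR-194-5p: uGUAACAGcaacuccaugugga
hsa-miR-192-3p: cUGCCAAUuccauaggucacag
hsa-miR-215-3p: uCUGUCAUuucuuuaggccaaua
hsa-miR-194-3p: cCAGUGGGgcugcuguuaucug

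miR-192-5p and miR-215-5p share their seed and differ at 2 of 21 positions, C1A and C20A, counted from the 5′ end of miR-192-5p. No other mature miRNA in the RefSeq table has that seed. A read that covers neither position matches both, so the split between the paralogs is uncertain for trimmed reads. miR-194-5p is identical at its 2 loci, and its counts cannot be divided between the clusters, while miR-194-3p is listed at MIR194-2 only. Reads with several loci appear to enter the table more than once. Of the counts of at least 4, 75.1% were even for miRNAs with 2 loci against 52.4% for miRNAs with 1 locus, and 100% were multiples of 4 for miRNAs with 4 loci. For miR-194-5p 2 of 6 values were even, so not all of its reads were counted at both loci.

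The hairpins are shown with their listed mature arms in capitals, because the miR-194 copies diverge on the 3p side.
MIR194-2: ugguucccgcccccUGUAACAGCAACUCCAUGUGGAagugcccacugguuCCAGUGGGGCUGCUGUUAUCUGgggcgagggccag
MIR194-1: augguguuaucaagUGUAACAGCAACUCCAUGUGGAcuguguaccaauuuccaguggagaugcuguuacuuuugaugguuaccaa
MIR192: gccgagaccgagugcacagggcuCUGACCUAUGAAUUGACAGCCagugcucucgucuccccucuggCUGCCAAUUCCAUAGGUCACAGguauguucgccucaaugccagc
MIR215: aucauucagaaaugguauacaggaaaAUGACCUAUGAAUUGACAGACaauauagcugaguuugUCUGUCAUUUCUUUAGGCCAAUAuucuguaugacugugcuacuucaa

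The stretch of MIR194-1 at the hairpin positions of miR-194-3p, 51 to 72, differs from it at 5 of 22 bases, G8A, C10A, U19C, C20U and G22U, counted from the 5′ end of miR-194-3p. miR-194-3p holds a run of 4 consecutive G, at bases 6 to 9, whereas the longest run in the MIR194-1 stretch is 2. miR-194-3p has 8 G in all, and that stretch has 6.

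The input libraries held 16466178 to 19628046 counts and the m7G-RIP libraries 1654102 to 3105129. Levels are given as CPM, that is counts relative to the library size after TMM scaling, a correction for differences in composition, and the log2 ratio of m7G-RIP to input (log2 enrichment) was tested with the quasi-likelihood test of edgeR, with p-values adjusted over the 800 miRNAs by the Benjamini-Hochberg method. At these depths 3 counts are worth 0.235 to 0.262 CPM in an input library, against 0.675 to 1.1 CPM after the pulldown. Such floors cover counting error only.

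In the input the 5p arms were among the main miRNAs of these cells. miR-192-5p took 3.61, 3.87 and 3.74% of all miRNA counts in the 3 input libraries and ranked 5 in each of them. miR-194-5p took 1.13, 1.03 and 1.12% and ranked 9 or 10, and miR-215-5p took 0.255, 0.219 and 0.246% and ranked 37. The 3p arms were far rarer. miR-194-3p ranked 132 to 138 with 2969, 3216 and 2970 counts, miR-215-3p ranked 241 to 264 with 338, 512 and 388 counts, and miR-192-3p ranked 296 to 337 with 212, 149 and 176 counts. The input order of the arms was thus the same in each library, with no overlap between neighbours in CPM.

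In m7G-RIP this order changed. The 6 members together took 5.02, 5.14 and 5.14% of the input counts and 1.24, 1.14 and 1.14% of the m7G-RIP counts, a mean of 5.10% ± 0.0718 (SD, n = 3) against 1.17% ± 0.0566 (SD, n = 3). The groups did not overlap (exact permutation test, two-sided, p = 0.1, the smallest value that 3 against 3 libraries allow). Within the family, miR-192-5p fell from 73.4% ± 1.70 to 52.2% ± 2.24 of the member counts (SD, n = 3). miR-194-3p went from 0.342% ± 0.0202 to 21.6% ± 1.30 of them (SD, n = 3), beside a miR-194-5p share of 21.5% ± 1.26 in the input and 20.5% ± 0.472 in m7G-RIP (SD, n = 3).

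**Figure D1:**
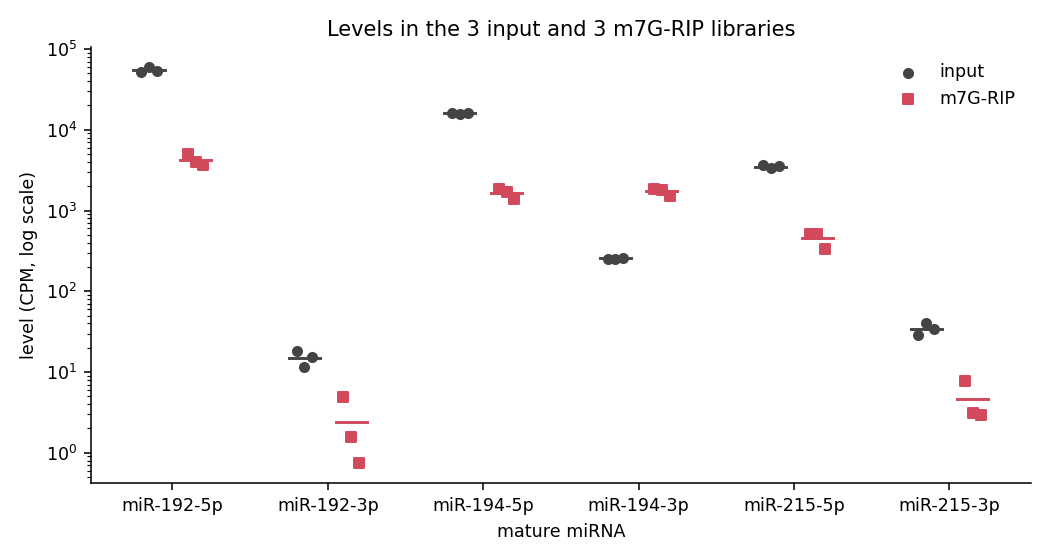
Level of each member in CPM (log scale) in the 3 input libraries (dark circles) and the 3 m7G-RIP libraries (red squares), with the group mean as a line. For 5 members every m7G-RIP value lies below every input value, and for miR-194-3p, at 252 to 259 CPM in the input and 1522 to 1872 CPM in m7G-RIP, every m7G-RIP value lies above.

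At the level of single miRNAs, 5 of the 6 members were depleted by the pulldown and 1 was enriched (adjusted p under 0.05). Over all 800 tested miRNAs 38.1% were depleted and 40.1% enriched. Depletion was more common among abundant miRNAs, and miR-192-5p, miR-194-5p, miR-215-5p and miR-194-3p each had at least 100 CPM in the input. Of 163 tested miRNAs at that level with a RefSeq sequence and no run of 4 G, 104 (63.8%) were depleted and 34 enriched. Of 7 with such a run, 2 were depleted and 5 enriched. The median log2 enrichment was -2.90 over the members and 0.16 over all tested miRNAs.

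miR-192-5p, the dominant product of the chromosome 11 cluster, was at 51291, 59561 and 53794 CPM in the input and at 5004, 3963 and 3669.6 CPM in m7G-RIP. The means were 54882 ± 4241 and 4212 ± 701 CPM (SD, n = 3), a 13.0-fold lower level. Its log2 enrichment was -3.70 (standard error, SE, 0.17, edgeR adjusted p = 4.01e-10). It still ranked 24 to 27 in the m7G-RIP libraries. It had the lowest log2 enrichment of the 6 members, and 82 of the 800 tested miRNAs lay lower.

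miR-194-5p, the arm shared by both clusters, was at 15987, 15857 and 16154 CPM in the input and at 1869, 1675 and 1401 CPM in m7G-RIP. Its input libraries lay close together, with a mean of 15999 ± 148 CPM (SD, n = 3), and all 3 m7G-RIP values were far below, with a mean of 1649 ± 236 CPM (SD, n = 3). This is a 9.70-fold lower level, with a log2 enrichment of -3.28 (SE 0.15, edgeR adjusted p = 5.01e-10). Whether the part of its reads counted at both loci was the same in both groups was not tested.

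miR-215-5p, the paralog of miR-192-5p from chromosome 1, was at 3622, 3362 and 3538 CPM in the input and at 513, 519 and 333 CPM in m7G-RIP. The third m7G-RIP library was the lowest, and the groups did not overlap. The level was 7.70-fold lower, with a log2 enrichment of -2.94 (SE 0.18, edgeR adjusted p = 7.18e-09).

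The 3p arms of miR-192 and miR-215, the minor products of their hairpins, were depleted on few counts. miR-215-3p had 32, 14 and 8 counts in m7G-RIP, or 7.77, 3.15 and 2.95 CPM, against 28.8, 40.1 and 33.9 CPM in the input. Its log2 enrichment was -2.85 (SE 0.36, edgeR adjusted p = 8.67e-06). miR-192-3p had 20, 7 and 2 counts in m7G-RIP, or 4.86, 1.58 and 0.737 CPM, against 18.1, 11.7 and 15.4 CPM in the input. Its log2 enrichment was -2.57 (SE 0.48, edgeR adjusted p = 0.000277). For both arms the first m7G-RIP library was the highest, and the third value of miR-192-3p lies under the level of 3 counts. Without the first m7G-RIP library the log2 enrichment was -3.61 for miR-192-3p and -3.51 for miR-215-3p.

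miR-194-3p, the minor arm of MIR194-2, was the exception. It was at 253, 252 and 259 CPM in the input and at 1872, 1814 and 1522 CPM in m7G-RIP. The input mean was 255 ± 3.87 CPM and the m7G-RIP mean 1736 ± 188 CPM (SD, n = 3), a 6.81-fold higher level. Its log2 enrichment was 2.77 (SE 0.15, edgeR adjusted p = 1.64e-09). In raw counts it rose from 2969, 3216 and 2970 to 7712, 8055 and 4130, although the m7G-RIP libraries held far fewer counts in all. It ranked 37 or 38 in m7G-RIP, just ahead of miR-194-5p, which ranked 39 to 43. Its log2 enrichment ranked 127 of 800.

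**Figure D2:**
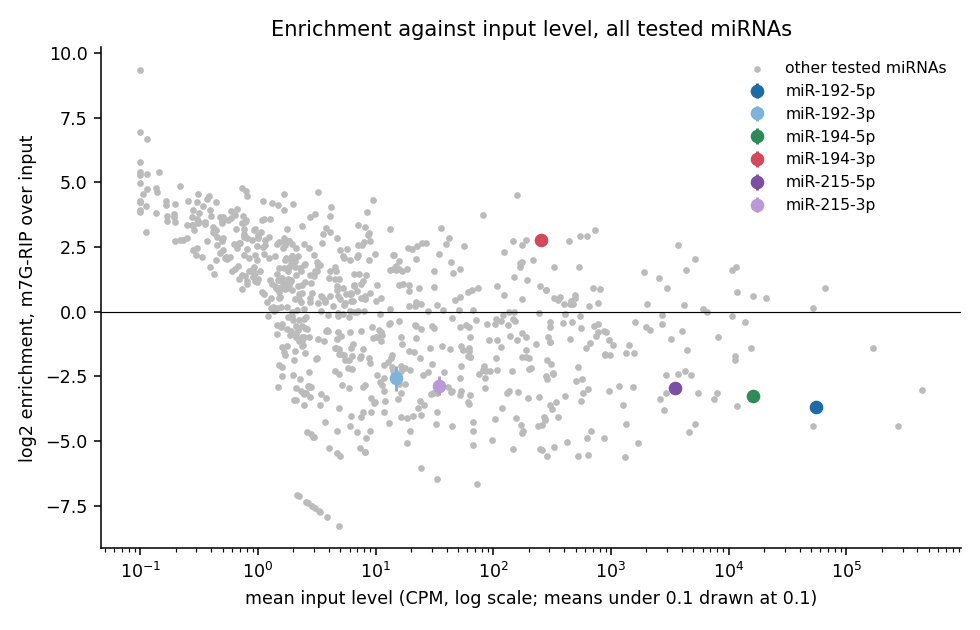
Log2 enrichment against mean input level (CPM, log scale) for the 800 tested miRNAs (grey) and the 6 members (coloured, with standard errors). The members other than miR-194-3p lie between -3.70 and -2.57 across input levels from 15.03 to 54882 CPM, while miR-194-3p lies at 2.77.

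Ratios between members within a library do not depend on how libraries are scaled, so 5 of them were compared between the groups. With 3 libraries a group an exact permutation test cannot give less than p = 0.1, or 0.167 after Benjamini-Hochberg adjustment over these 5. The ratio of miR-194-5p to miR-194-3p was 63.2, 62.9 and 62.3 in the input and 0.999, 0.924 and 0.921 in m7G-RIP. By these counts the 5p arm was in clear excess in every input library. It was about level with the 3p arm in every m7G-RIP library. Reads of miR-194-5p counted at both loci would raise the ratio in either group. By how much was not tested. On the log2 scale (0.5 added to each count) the mean ratio was 5.97 ± 0.01 in the input and -0.08 ± 0.07 in m7G-RIP (SD, n = 3), a 66.3-fold shift (exact permutation test, two-sided, p = 0.1). Expressed as a share of both arms, miR-194-3p took 1.57% ± 0.0106 in the input and 51.4% ± 1.15 in m7G-RIP (SD, n = 3). Since miR-194-5p also comes from MIR194-1, the ratio is not that of 1 hairpin.

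For the other hairpins the groups overlapped. The ratio of miR-215-5p to miR-215-3p was 125.7, 83.8 and 105 in the input and 66.0, 165 and 113 in m7G-RIP. The mean log2 ratio was 6.69 ± 0.29 and 6.69 ± 0.65 (SD, n = 3, exact permutation test, two-sided, p = 1). The ratio of miR-192-5p to miR-192-3p was 2838, 5103 and 3503 in the input and 1031, 2514 and 4980.0 in m7G-RIP, which also overlapped. Its mean log2 ratio was 11.85 ± 0.43 and 11.04 ± 1.00 (SD, n = 3, exact permutation test, two-sided, p = 0.3). The m7G-RIP ratios of miR-192 rest on 2 to 20 counts of its 3p arm.

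The ratios between the 5p arms shifted by less than that of the miR-194 arms. The ratio of miR-192-5p to miR-215-5p, which share a seed, was 14.2, 17.7 and 15.2 in the input and 9.76, 7.63 and 11.01 in m7G-RIP. Every m7G-RIP ratio was below every input ratio, a 1.67-fold shift in favour of miR-215-5p (exact permutation test, two-sided, p = 0.1). The ratio of miR-192-5p to miR-194-5p was 3.21, 3.76 and 3.33 in the input and 2.68, 2.37 and 2.62 in m7G-RIP. This smaller shift of 1.34-fold also left the groups without overlap (exact permutation test, two-sided, p = 0.1). The order of the 5p arms by level, miR-192-5p over miR-194-5p over miR-215-5p, was the same in all 6 libraries.

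**Figure D3:**
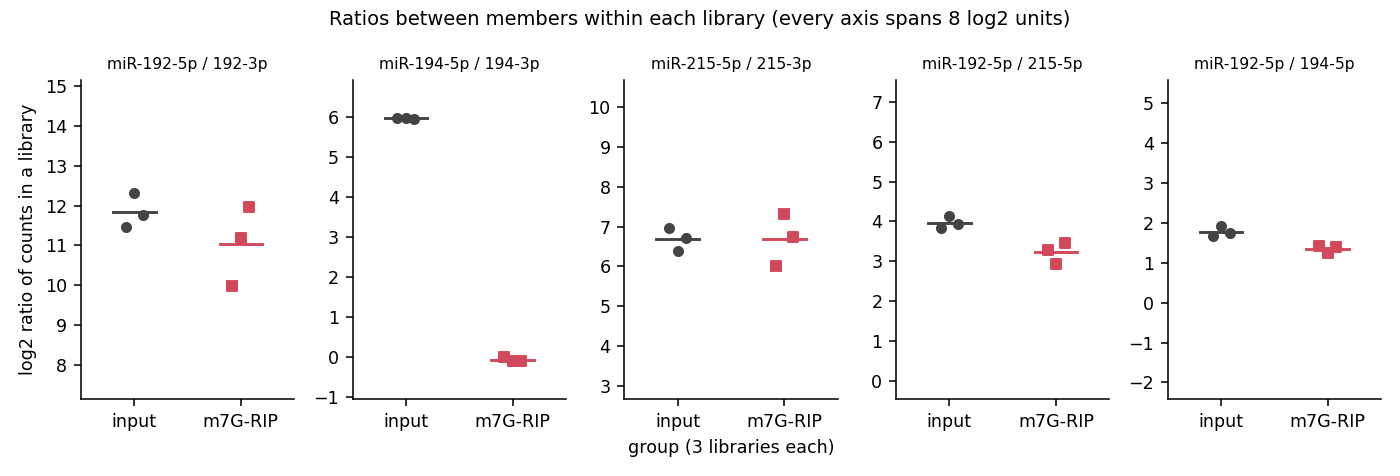
Log2 ratio of counts within each library for 5 pairs of members, in the 3 input (dark circles) and the 3 m7G-RIP libraries (red squares), with group means as lines. Every vertical axis spans the same range, so the shift of miR-194-5p over miR-194-3p, from 5.97 to -0.08, can be set against the other pairs, whose means moved by at most 0.81.

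Such a split between arms was set against the other hairpins of the table. Of 189 hairpins with both arms tested, 36 (19.0%) had 1 arm enriched and the other depleted. The arms differed by a median of 2.29 in log2 enrichment, regardless of direction. MIR194-2, with a difference of 6.05 between its listed 3p and 5p arms, ranked 10 of the 189. Its 5p arm, miR-194-5p, also comes from MIR194-1, so this difference is not that of 1 hairpin. MIR192, with 1.13, ranked 136, and MIR215, with 0.09, ranked 186. Arms of a hairpin share their transcript, and some mature arms, such as miR-30c-5p, enter with more than 1 hairpin. These ranks are a description of the table, not a test.

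The antibody recognises a methylated guanosine, so the guanosines of the members were counted. miR-215-3p has 3 G in 23 bases (13.0%), miR-192-3p 4 in 22 (18.2%), miR-192-5p and miR-215-5p 4 in 21 (19.0%) and miR-194-5p 5 in 22 (22.7%). miR-194-3p has 8 in 22 (36.4%), the highest share of the family. The 5 depleted members have no run of G longer than 2 bases. Over the 714 tested miRNAs with a RefSeq mature sequence the median G share was 27.3%. Of these, 479 had a lower G share than miR-194-3p, and 432 had a higher share than miR-194-5p. These counts, and the runs below, concern the RNA strand of the mature sequence alone, and say nothing of which base is methylated.

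Across those 714 miRNAs the G share and log2 enrichment had a Pearson's r of 0.50 and a Spearman's rho of 0.50, over points that share the same 6 libraries. A run of at least 4 consecutive G (GGGG, overlapping longer runs) was held by 109 of them, or 15.3%. Of these 109, 89 were enriched and 7 depleted, with a median log2 enrichment of 2.84. Of the 605 with shorter runs, 201 were enriched and 261 depleted, with a median of -0.37. miR-194-3p, at 2.77, lies close to the median of the 87 miRNAs whose longest run is exactly 4, which is 2.75, but most of these 87 were below 100 CPM in the input. The members with a longest run of 1 base, miR-192-5p and miR-215-5p, lie at -3.70 and -2.94, below their class median of -0.63. The members with a run of 2, miR-194-5p, miR-192-3p and miR-215-3p, lie at -3.28, -2.57 and -2.85, below their class median of -0.97. Input level moves with this measure, and its part was not tested. Among tested miRNAs of at least 100 CPM in the input only 7 held a run of 4 or more, of which 5 were enriched and 2 depleted, against 34 enriched and 104 depleted of 163 with shorter runs. The median log2 enrichment of these 7 was 0.67, and miR-194-3p was the highest of them, with the others between -4.08 and 1.72. The median of the 163 was -1.18.

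**Figure D4:**
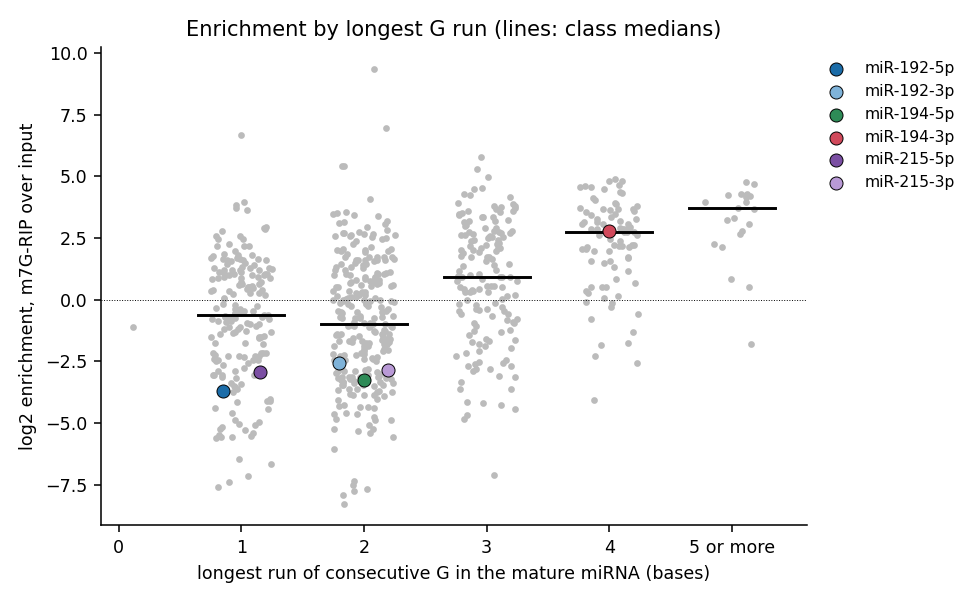
Log2 enrichment of the 714 tested miRNAs with a mature sequence, by the longest run of consecutive G in the sequence (bases), with class medians as lines and the 6 members in colour. miR-194-3p sits in the class of 4, whose median over all input levels is 2.75, while the other members sit in the classes of 1 and 2, below the medians of -0.63 and -0.97.

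The G share and the arm were also compared over the hairpins. In 182 of the 189 hairpins the arms had unequal G shares, and in 130 of these (71.4%) the arm with more G had the higher log2 enrichment. MIR194-2 is among the 130. MIR192 and MIR215 are not. Their 3p arms have the lower G share and the higher fitted log2 enrichment, by 1.13 and 0.09, while their arm ratios overlapped between the groups.

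The cell label was set against lists of miRNAs known from particular tissues. An epithelial and intestinal list, which includes the miR-200 family, took 3.08 to 3.35% of the input counts. The miR-192 family itself took a further 5.02 to 5.14%. Of the epithelial and intestinal list, miR-203a-3p and miR-196b-3p were at 0 in all 6 libraries. A haematopoietic list took 0.0224 to 0.0242%, most of it miR-155-5p with 3756 to 4202 counts per input library, while miR-223-3p was at 0 in each of them. A liver list took 0.148 to 0.189%, nearly all of it miR-483-3p with 22119 to 23210 and miR-483-5p with 6901 to 8231 counts per input library, while miR-122-5p was at 0 in all 6 libraries. A muscle list took 0.0452 to 0.0528%, with miR-1-3p at 7242 to 8053 counts per input library and both arms of miR-208a at 0. An endothelial and fibroblast list took 0.0628 to 0.0657%, most of it miR-126-3p with 8459 to 10457 counts per input library. A neural list took 0.597 to 0.657%, most of it miR-128-3p with 71411 to 73525 counts per input library. Of the same list miR-9-5p was at 32659 to 39286 counts per input library and miR-137 at 0. Of the 16 tested miRNAs of the epithelial and intestinal list 4 were enriched and 11 depleted, with a median log2 enrichment of -1.37, beside 40.1% enriched and 38.1% depleted over all tested miRNAs. Without a filter 2 of 17 were enriched, and with scaling by total counts 7 of 16 were depleted. The highest was miR-375 with 1.23 (SE 0.16, edgeR adjusted p = 1.47e-05), and the lowest was miR-141-3p with -5.33 (SE 0.20, edgeR adjusted p = 1.19e-10). Of a p53-induced list, 1 of 10 tested miRNAs was enriched and 7 were depleted, with a median of -1.72, and 3 were enriched with scaling by total counts. Its extremes were miR-34b-3p with 2.17 (SE 0.39, edgeR adjusted p = 0.000201) and miR-145-5p with -5.26 (SE 0.84, edgeR adjusted p = 8.07e-05). miR-145-5p had 43, 47 and 53 counts in the input and 1, 0 and 0 in m7G-RIP. Its m7G-RIP values lie under the level of 3 counts, so the size of its depletion is uncertain.

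The direction of every member held under each scaling tried. Total counts, which raised the median log2 enrichment of all tested miRNAs by 1.09, gave -2.61 for miR-192-5p, -2.19 for miR-194-5p, -1.87 for miR-215-5p and 3.86 for miR-194-3p. DESeq2's size factors, with a median shift of -0.34, gave -4.05, -3.63, -3.29 and 2.42 in the same order.

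**Figure D5:**
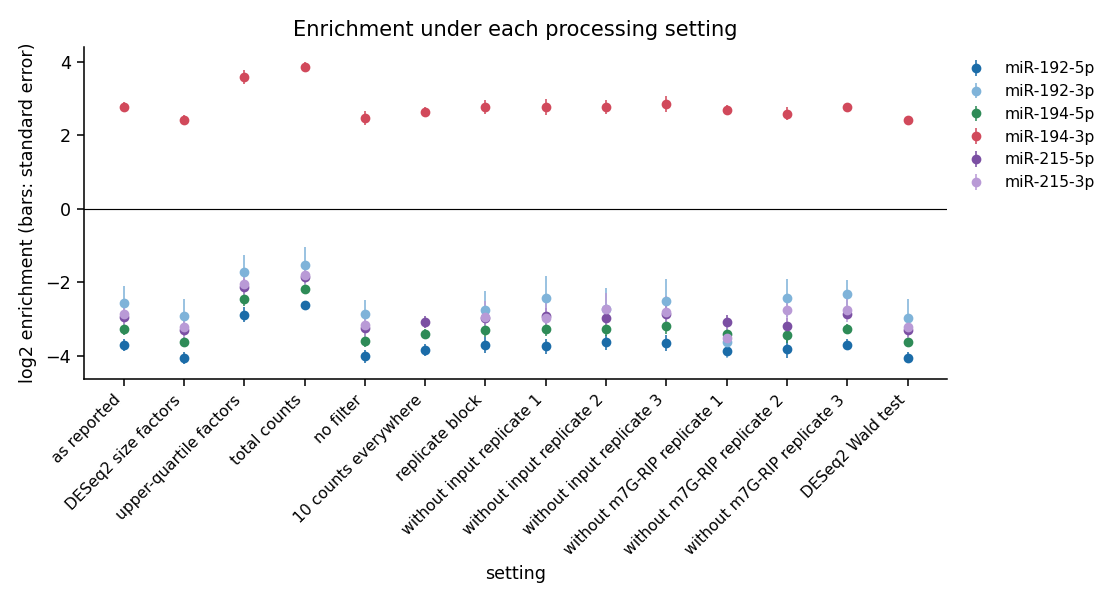
Log2 enrichment of the 6 members (points, with standard errors) as reported and under each other scaling, filter, test or left-out library. All members move together with the scaling, miR-194-3p stays between 2.42 and 3.86, and the other members stay below 0.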

How the data were processed

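Raw read counts per mature miRNA in 3 input and 3 m7G-RIP libraries of Caco-2 cells, not normalized or pooled, were deposited by the authors. The study's methods describe adaptor trimming with Trimmomatic, mapping to GRCh38 with STAR, allowing several loci per read, and counting with featureCounts on miRBase mature miRNAs. The submitters' processing notes name Bowtie2 as the mapper instead. How reads with several loci were counted is not given in the sources used here. Libraries were assigned to groups by their titles.

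miRNAs were filtered with filterByExpr (800 of 2588 kept), scaled with TMM and tested with the quasi-likelihood test of edgeR 4.0.16 in R 4.3.3, on all 6 libraries, with Benjamini-Hochberg adjustment and a threshold of 0.05. The standard error is the absolute log2 enrichment divided by the square root of the F statistic. Input libraries held 16466178 to 19628046 counts and m7G-RIP libraries 1654102 to 3105129, so the values of rare miRNAs in m7G-RIP are the least precise. Reads carry no molecular identifiers. Ratios within a library used a pseudocount of 0.5 and exact permutation tests in scipy 1.17.1. RefSeq sequences (GRCh38.p14) matched 2281 of the 2588 names, and hairpin coordinates were the same in GENCODE release 44. Libraries of a group differed beyond sampling noise (chi-square of their counts over its degrees of freedom, 17.5 to 105), so none was a copy.

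The members and lists were chosen with earlier results of these data known. The miRNAs named are the 6 members, the 3 miRNAs closest in level to each 5p member, the highest and lowest called miRNA of each list, and miRNAs that share a seed with a 5p member. Other named miRNAs were picked after their values were seen. Alternatives were other scalings (DESeq2's size factors, upper-quartile factors, total counts), DESeq2 1.42.0, testing without a filter, a minimum of 10 counts in each library, the replicate number as a block, and each library left out. The G run comparison among miRNAs of at least 100 CPM and the list counts under other settings were added after seeing the data.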

Additional observations from a re-analysis of the deposited data

How the results depend on the processing

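Over 76 values of the 6 members under other settings, none reversed (0) and all 76 passed the threshold of 0.05 on the adjusted p of edgeR or DESeq2. At least 10 counts in every library left miR-192-3p and miR-215-3p untested. With each library left out the log2 enrichment ranged from -3.88 to -3.63 for miR-192-5p, -3.44 to -3.20 for miR-194-5p, -3.20 to -2.85 for miR-215-5p, -3.61 to -2.33 for miR-192-3p, -3.51 to -2.72 for miR-215-3p and 2.58 to 2.85 for miR-194-3p. The shift in log2 ratio ranged from -6.09 to -6.03 for the arms of miR-194, -1.26 to -0.27 for those of miR-192, -0.31 to 0.34 for those of miR-215, -0.86 to -0.59 for miR-192-5p over miR-215-5p and -0.47 to -0.36 for miR-192-5p over miR-194-5p. No ratio moved by more than its SD between replicates with a pseudocount of 0.1 or 1. The share of the members fell by 3.93 percentage points from input to m7G-RIP. Without the 2 most abundant input miRNAs in the denominator it fell by 8.67. Their removal moved the mean input share from 5.10 to 9.97% and the mean m7G-RIP share from 1.17 to 1.30%. The size of the fall thus depends on the composition of the libraries. Over all miRNAs 321 were enriched and 305 depleted as reported. With each library left out 268 to 341 were enriched and 235 to 377 depleted, but the number tested also changed, from 668 to 967. With at least 10 counts in every library, where only 426 were tested, 182 were enriched and 175 depleted. With total counts 442 were enriched and 198 depleted. Enriched miRNAs were 51.3% of the calls as reported, 69.1% with total counts, 45.1% with the size factors of DESeq2 and 64.8% with upper-quartile factors. Same-numbered libraries did not deviate together (correlations -0.0142, -0.0275 and 0.06). In the fit with a replicate block the log2 enrichment was -3.71 for miR-192-5p, -3.29 for miR-194-5p, -2.97 for miR-215-5p and 2.76 for miR-194-3p, with 296 miRNAs enriched and 295 depleted in all, and it changed no call of a member. In an exact sign-flip test on same-numbered pairs the miR-194 arm ratio had p = 0.25, the smallest value 3 pairs allow.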

Other observations

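The miRNAs closest to each member in level were found as those with the smallest root mean square difference in log2 CPM over the 6 libraries. For miR-192-5p the closest was miR-148a-3p, at a difference of 0.56, with 52011 CPM in the input and 2450 CPM in m7G-RIP. The next were miR-200b-3p at 1.34, an epithelial miRNA, and miR-194-5p at 1.58, its cluster neighbour. For miR-194-5p they were miR-27b-3p at 0.65, miR-373-3p at 0.76 and miR-378a-3p at 0.85. For miR-215-5p they were miR-221-3p at 0.34, miR-9-5p at 0.39 and miR-93-5p at 0.48, each with a log2 enrichment between -3.15 and -2.43. The 3p arms of miR-192 and miR-215 were closest to rare miRNAs, miR-581 at 0.41 and miR-324-3p at 0.35. For miR-194-3p the closest was miR-320c at 0.52, with 191 CPM in the input, 1305 CPM in m7G-RIP and a log2 enrichment of 2.77. miR-155-5p, at 0.57, and miR-196a-5p, at 0.72, followed with a log2 enrichment of 1.72 and 2.01. Likeness of this kind describes level in 6 libraries and no more.

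The remaining tissue lists were small. Both tested miRNAs of the liver list were enriched, miR-483-5p with 2.93 and miR-483-3p with 1.55. Of the haematopoietic list 3 of 5 tested were depleted and 1 enriched, of the muscle list 2 of 4 were depleted, of the endothelial and fibroblast list 6 of 7 and of the neural list 3 of 5 (edgeR's quasi-likelihood test), beside 38.1% depleted and 40.1% enriched over all tested miRNAs. The depleted calls of the haematopoietic list were lost with scaling by total counts. With any input library left out, when only 2 miRNAs of the haematopoietic list and 2 of the muscle list were tested, 1 of each was depleted. Where a miRNA needed 10 counts in each library, 2 of the endothelial and fibroblast list could be tested, and both were depleted. In the haematopoietic list the highest and lowest called log2 enrichment were 1.72 for miR-155-5p and -2.97 for miR-142-3p. In the muscle list they were -3.48 for miR-133a-3p and -7.94 for miR-133a-5p. In the endothelial and fibroblast list they were -0.77 for miR-126-3p and -4.43 for miR-199b-5p. In the neural list they were -2.29 for miR-128-1-5p and -3.15 for miR-9-5p. miR-142-3p had 1, 0 and 7 counts in the m7G-RIP libraries, miR-133a-5p 0 in each and miR-199b-5p 1 in each. For miR-133a-5p and miR-199b-5p every m7G-RIP value lies under the level of 3 counts, so the size of their depletion is uncertain.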
